A study of Mus musculus with 2 samples.

Results

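The replication histone genes are the 68 genes, of 24346 listed in each library, whose symbol begins with Hist1h, Hist2h, Hist3h or Hist4h. They were chosen by symbol alone, and the family was taken up because Hist1h1b and Hist1h1e were higher in the PU.1-/- wound, so the values of those 2 genes are a description here. The family holds 6 genes of the linker histone H1, 18 of H2a, 19 of H2b, 12 of H3 and 13 of H4. In the mm10 genome 54 of them lie in the Hist1 cluster on chromosome 13, 10 in Hist2 on chromosome 3, 3 in Hist3 on chromosome 11, and the single gene Hist4h4 on chromosome 6.

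The data are bulk mRNA sequencing values of dorsal skin wounds of C57BL/6J mice, with 1 WT library and 1 PU.1-/- library (PU.1_KO in the labels). Wounds made in 1-day-old littermates were harvested 24 h after injury; the methods describe incisions and the design text excisions, and neither states how many pups, or of which sex, each library holds. Spi1 encodes PU.1, which controls the formation of myeloid and lymphoid blood cells, and PU.1-/- mice lack it in every cell rather than in the wound alone. Levels are given in FPKM, the fragments of a gene per length of its transcript and per depth of sequencing. As a check of the genotype, the values of Spi1 were 35.4 FPKM (WT) and 1.45 FPKM (PU.1-/-). With 1 library per genotype no spread between animals was measured, so no difference below was tested, and the intervals given cover counting error only.

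Histones are the proteins around which DNA is wound. H2a, H2b, H3 and H4 form the core of the nucleosome, and H1 binds the linker DNA between nucleosomes. The genes described here are known for being transcribed mainly in S phase, when new DNA must be packed, and for mRNAs that end in a conserved stem-loop bound by Slbp instead of a poly(A) tail. Some of them also give polyadenylated transcripts in cells that have stopped dividing. The libraries were made with an mRNA kit that selects poly(A) tails, so these values are the levels of the transcripts that such a library captures, not of all histone mRNA.

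Sequences at the ends of the annotated transcripts are shown first because the libraries were selected at that end. The stem-loop was searched by name, as its conserved 16-base form, in the longest RefSeq-linked GENCODE M21 transcript of each gene. It was found in 43 of the 68 histone genes, compared with 57 of 141767 annotated mouse transcripts (0.0402%). Some of the other genes have short annotated transcripts, such as Hist1h2bl at 381 nt and Hist1h3h at 411 nt. Others are longer, such as Hist2h2be at 2620 nt and Hist1h2bq at 1254 nt, and a stem-loop that departs from the form searched would be missed. An end that lies beyond the annotated transcript could not be found, so a gene without a match is not shown to lack it. The stretches below run 5′ to 3′, with the stem-loop in capitals, for the H1 gene with the highest level, for Hist1h1e, and for the highest of the core histone genes that hold one.
Hist1h1c: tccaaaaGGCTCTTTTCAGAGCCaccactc
Hist1h1e: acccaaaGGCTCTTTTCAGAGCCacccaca
Hist3h2a: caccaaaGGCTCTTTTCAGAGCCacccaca
Hist2h2ac: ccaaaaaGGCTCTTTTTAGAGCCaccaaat
Hist3h2ba: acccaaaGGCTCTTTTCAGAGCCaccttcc
Hist1h3c: aaaaaaaGGCTCTTTTAAGAGCCacctaag
Hist1h4i: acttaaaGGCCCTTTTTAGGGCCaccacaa
Hist1h4h: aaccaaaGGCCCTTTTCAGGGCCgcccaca

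The stem-loop of 25 genes was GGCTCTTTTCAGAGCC, found in H1, H2a, H2b and H3 genes. None of the 11 H4 genes with a stem-loop had that form. Their stems were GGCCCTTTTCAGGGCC in 7 genes, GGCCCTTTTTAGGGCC in 2 and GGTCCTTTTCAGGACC in 2. The remaining forms were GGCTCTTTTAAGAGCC in 6 genes and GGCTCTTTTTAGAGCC in Hist2h2ac.

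A poly(A) hexamer, AATAAA or ATTAAA, lay in the last 50 bases of the annotated transcript in 17 of the 68 histone genes. Of all annotated transcripts, a set that can hold several per gene, 33.7% had one. Of the 7 histone genes with a mean level of at least 2 FPKM, 5 had one. Over the whole family, genes with a hexamer there were not higher: their median of the mean FPKM was 0.139, compared with 0.145 in the 51 genes without one, and 7 of 17 and 16 of 51 were listed at 0 in both libraries. The 5 hexamers are shown in capitals.
Hist1h1c: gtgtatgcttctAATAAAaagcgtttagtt
Hist3h2a: aggtatatgcccAATAAAataagagtacgt
Hist3h2ba: cataatggtattAATAAAtttggttcaatt
Hist1h4i: ggttctgtttacATTAAAagtattctatgc
Hist1h4h: ccacattttcttATTAAAagagcgaacatg

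In Hist1h1c the annotated transcript went on for 840 nt after the stem-loop, in Hist3h2a for 1643 nt and in Hist1h4i for 330 nt, so that both ends are annotated for the same gene. In Hist1h4h only 46 nt followed the stem-loop. The other histone genes of at least 2 FPKM were Hist1h2bc and Hist2h2ac. Neither feature was found in the annotated spliced transcript of Hist1h2bc, the only form searched. Hist2h2ac had the stem-loop and no hexamer in its last 50 bases.

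**Figure D1:**
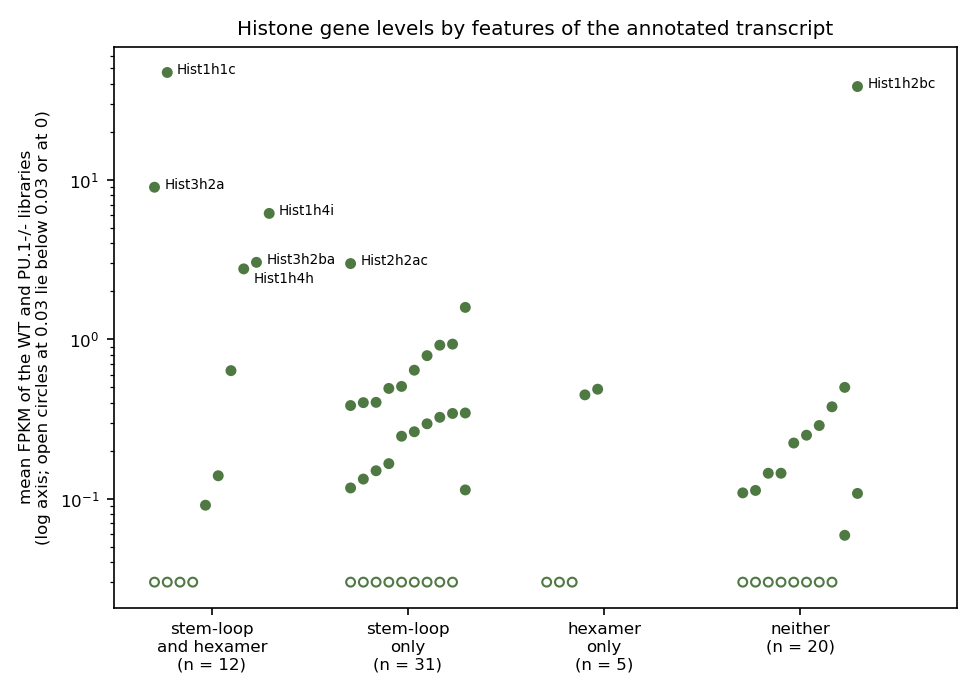
Mean FPKM of the WT and PU.1-/- libraries (vertical log axis) for each of the 68 histone genes, grouped by whether the annotated transcript held the stem-loop and a poly(A) hexamer in its last 50 bases; each circle is 1 gene, and open circles lie below 0.03 FPKM or at 0. Of the 7 named genes, which have a mean of at least 2 FPKM, 5 stand among the 12 genes that hold both features, while the 31 genes with the stem-loop alone hold 1. Below these genes the groups overlap, and the median with a hexamer was 0.139 FPKM compared with 0.145 FPKM without.

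Levels were very uneven within the family. Hist1h1c and Hist1h2bc together made up 70.5% of the summed FPKM of the 68 genes in WT and 68.5% in PU.1-/- skin. The 7 genes of at least 2 FPKM made up 90.3% and 87.6%. At the other end, 23 genes (33.8%) were listed at 0 in both libraries, compared with 27.0% of all listed genes, and these were 1 H1, 9 H2a, 5 H2b, 3 H3 and 5 H4 genes. In all, 44 genes passed 0.1 FPKM and 11 genes reached 1 FPKM in 1 or both libraries. Summed over the family, the level was 123 FPKM in both libraries, with a PU.1-/- over WT ratio of 0.999.

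Read numbers show how little data stands behind most of these values. Genes with equal read numbers share 1 WT over PU.1-/- FPKM ratio, 1.149, which 456 of 4542 low genes had, and 27 of the 28 histone genes above 0 in both libraries gave whole read pairs on that scale. The 68 genes held an estimated 1020 reads in WT and 1120 in PU.1-/- skin, from about 1.38e+07 and 1.58e+07 fragments. Hist1h1c and Hist1h2bc held 1781 of these 2140 reads (83.2%), and 59 genes held under 10 reads each over both libraries, 106 in all.

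**Figure D2:**
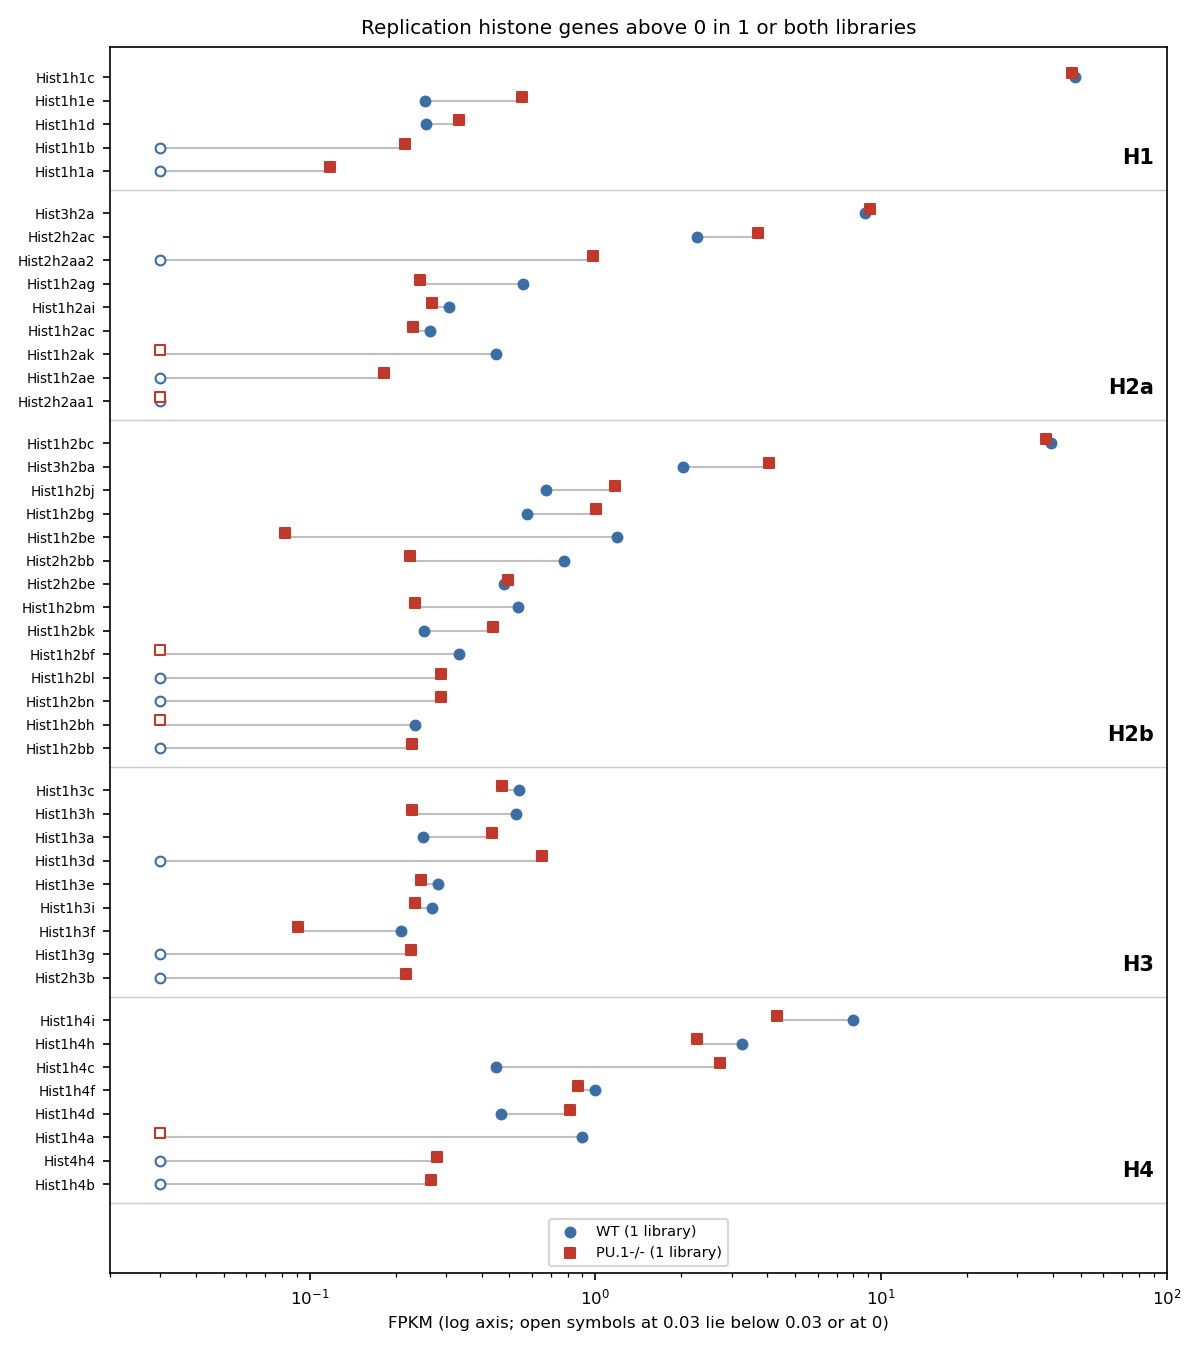
FPKM (log axis) of the 45 histone genes above 0 in 1 or both libraries, by family, with blue circles for the WT library and red squares for the PU.1-/- library; open symbols lie below 0.03 FPKM or at 0. In each of H1, H2a, H2b and H4 the highest gene stands apart from most others, and for Hist1h1c, Hist1h2bc and Hist3h2a both symbols nearly coincide.

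The linker histone H1 family had 1 gene at a high level and summed to 48.3 and 47.8 FPKM, a ratio of 0.991. Hist1h1c (now H1f2; chr13:23738808-23740367, plus strand), a linker histone made in dividing and resting cells alike, was 47.7 FPKM in WT skin and 46.6 FPKM in PU.1-/- skin. These values rest on 339 and 380 reads, and the ratio was 0.976 (95% interval 0.841 to 1.13). The libraries were therefore close for the most abundant histone gene, within a narrow counting interval.

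The other somatic H1 genes were all low. Hist1h1e (H1f4; chr13:23620629-23622558, minus strand), a linker histone that compacts chromatin, was 0.253 FPKM in WT skin and 0.551 FPKM in PU.1-/- skin. That is 2 reads against 5, a ratio of 2.18 with an interval of 0.356 to 22.9. Hist1h1b (H1f5; chr13:21779883-21780625, minus strand), a linker histone associated with proliferating cells, was listed at 0 in WT and was 0.216 FPKM in PU.1-/- skin, on 2 reads. The difference in both genes for which the family was taken up therefore rests on 9 reads over both libraries, and each counting interval holds a ratio of 1. Hist1h1d was 0.256 and 0.334 FPKM, on 2 and 3 reads, and Hist1h1a was listed at 0 and at 0.118 FPKM, on 1 read. Hist1h1t, the testis linker histone, was listed at 0 in both libraries.

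The H2a family summed to 12.7 FPKM in WT skin and 14.8 FPKM in PU.1-/- skin, a ratio of 1.17, and its 50 and 68 reads gave an interval of 0.810 to 1.74. Hist3h2a (H2aw; chr11:58954685-58956830, plus strand), a core histone gene of the small Hist3 cluster, was 8.82 and 9.17 FPKM, on 36 and 43 reads. Hist2h2ac was 2.27 and 3.70 FPKM, on 8 and 15 reads, and its ratio of 1.63 had an interval of 0.650 to 4.45. The level was higher in PU.1-/- skin, but the interval holds a ratio of 1. Hist2h2aa2 (chr3:96239749-96240276, minus strand) was listed at 0 in WT and was 0.984 FPKM in PU.1-/- skin, an estimated 6 reads, and the lower bound of its interval was 1.03. All of its 75-base windows also occur in other genes, Hist2h2aa1 among them, so reads of this length cannot place it, and its neighbour Hist2h2aa1 was listed at 0 in WT and 0.000320 FPKM in PU.1-/- skin. Of the 18 H2a genes, 9 were listed at 0 in both libraries.

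The H2b family summed to 46.3 FPKM in each library. Hist1h2bc (H2bc4; chr13:23684199-23692908, plus strand), whose annotated transcript is spliced from 2 exons of 423 and 733 nt, was 39.2 FPKM in WT skin and 37.8 FPKM in PU.1-/- skin. Its estimated 504 and 558 reads were the most of any histone gene at the lengths used, 1156 nt here and 725 nt for Hist1h1c. The ratio was 0.964 (0.853 to 1.09). Hist3h2ba, an H2b gene of the Hist3 cluster, was 2.03 and 4.05 FPKM, on 7 and 16 reads, with a ratio of 1.99 and an interval of 0.775 to 5.72. Hist1h2bj was 0.670 and 1.17 FPKM and Hist1h2bg was 0.576 and 1.004 FPKM, each on 2 and 4 reads. Hist2h2be was 0.479 and 0.495 FPKM, on 16 and 19 reads.

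The one gene of the family with more than 10 reads and a ratio beyond 2-fold was an H2b gene. Hist1h2be (chr13:23583670-23621124, minus strand) was 1.19 FPKM in WT skin and 0.0819 FPKM in PU.1-/- skin, an estimated 38 and 3 reads, and its interval of 0.0136 to 0.217 lay below 1. It was the exception among the 28 genes above 0 in both libraries, since its values did not correspond to whole reads. The gene is annotated with several transcripts. The first exon of both spliced ones (chr13:23620916-23621124 in the longer) lies inside the exon of Hist1h1e on the same strand, and 14.4% of the 75-base windows of the longest one also occur in other genes. How its reads were divided between these transcripts and Hist1h1e was not tested. Without Hist1h2bc, the H2b genes summed to 7.08 and 8.50 FPKM, while their reads went the other way, from 73 to 53. The interval on those reads, 0.435 to 0.913, left out 1. Hist1h2be, taken as 2506 nt long, held 38 and 3 of them.

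**Figure D3:**
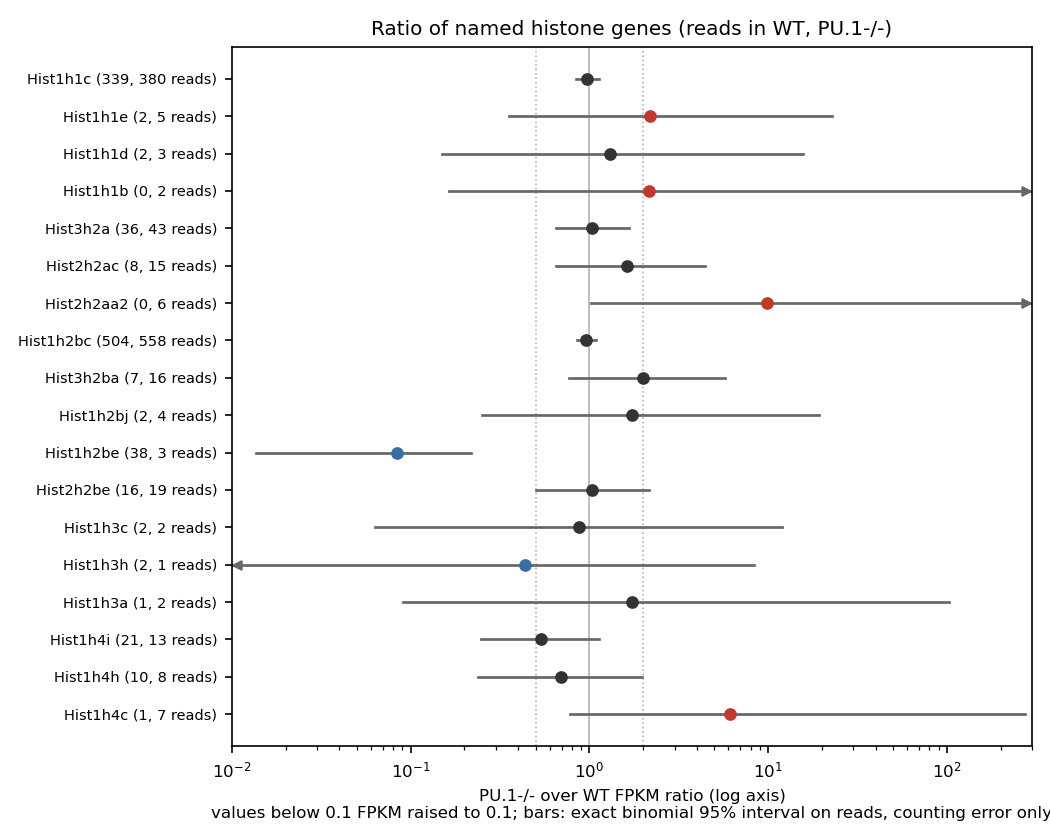
PU.1-/- over WT ratio of FPKM (log axis), with values below 0.1 FPKM raised to 0.1, for 18 histone genes: those described in full and those of at least 10 reads. Numbers after each name are reads in WT and PU.1-/- skin, bars are exact binomial 95% intervals of the ratio for counting error only, arrowheads mark bars that run beyond the axis, dotted lines mark 2-fold, and red and blue points lie at least 2-fold higher and lower; only the bars of Hist1h2be and Hist2h2aa2 do not cross 1.

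The H3 family was the lowest. Its 12 genes summed to 2.08 FPKM in WT skin and 2.80 FPKM in PU.1-/- skin, on 11 and 15 reads, and the interval of 0.510 to 2.86 was correspondingly wide. No H3 gene reached 1 FPKM. Hist1h3c was 0.542 and 0.472 FPKM, on 2 reads in each library. Hist1h3h was 0.526 and 0.229 FPKM, on 2 reads and 1, and Hist1h3a was 0.250 and 0.435 FPKM, on 1 read and 2. Hist1h3d, listed at 0 in WT, was 0.649 FPKM in PU.1-/- skin, on 3 reads.

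The H4 family summed to 14.1 FPKM in WT skin and 11.5 FPKM in PU.1-/- skin, a ratio of 0.820, and its 39 and 35 reads gave an interval of 0.481 to 1.27. Hist1h4i (H4c9; chr13:22040636-22041362, minus strand) was 8.01 and 4.32 FPKM, on 21 and 13 reads, with a ratio of 0.539 and an interval of 0.248 to 1.13. Hist1h4h was 3.26 and 2.27 FPKM, on 10 and 8 reads. Both were lower in PU.1-/- skin, and neither interval left out a ratio of 1. Hist1h4c (H4c3; chr13:23697635-23698454, minus strand) went the other way, from 0.447 to 2.73 FPKM, on 1 read against 7, with a ratio of 6.09 and an interval of 0.783 to 275. H4 genes encode nearly the same protein from separate loci. Of the 75-base windows, 42.4% in Hist1h4h, 22.4% in Hist1h4i and 16.9% in Hist1h4c also occur in other genes.

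Counting genes at 2-fold, with values below 0.1 FPKM raised to 0.1, 12 of the 68 histone genes were higher in PU.1-/- skin (17.6%), beside 2.32% of all listed genes, and 10 were lower (14.7%), beside 4.34%. By family, the higher genes were 2 of H1, 1 of H2a, 3 of H2b, 3 of H3 and 3 of H4, and the lower ones were 2 of H2a, 5 of H2b, 2 of H3 and 1 of H4. Since Hist1h1b and Hist1h1e are among the higher genes and led to the choice of the family, the higher count is partly fixed by that choice. Just inside the upper threshold were Hist1h1b, at 2.16 against the raised WT value, and Hist1h1e at 2.18, and just outside it was Hist3h2ba at 1.99. At the lower one, Hist1h3f lay just inside at 0.479 and Hist1h4i just outside at 0.539.

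Most of these genes were near the limit of detection. The higher genes had a median of 1 read over both libraries and at most 8, and 10 of the 12 were listed at 0 in WT. Of these 10, Hist1h2bb, Hist1h2bl, Hist1h2bn, Hist1h3g, Hist2h3b, Hist1h4b and Hist4h4 had 1 read each in PU.1-/- skin, at 0.218 to 0.289 FPKM. The lower genes had a median of 3 reads, and 4 of the 10 were listed at 0 in PU.1-/- skin. In WT skin these 4 were Hist1h4a at 0.897 FPKM on 3 reads, Hist1h2ak at 0.447 FPKM on 2, and Hist1h2bf and Hist1h2bh at 0.332 and 0.234 FPKM on 1 read each. Hist2h2bb was 0.775 and 0.225 FPKM, on 3 reads and 1. The interval left out 1 for 1 gene in each direction, Hist2h2aa2 and Hist1h2be. The share of all listed genes with such an interval was not computed, and among many intervals some leave out 1 by counting error alone. Reads of Hist2h2aa2 cannot be placed, and the values of Hist1h2be did not correspond to whole reads, so neither is read as a difference. Among all 35 histone genes of 1 to 9 reads, 34.3% were higher and 25.7% lower. Beside them, 167 other genes with 1 annotated transcript of at most 1000 nt and as few reads were called higher in 17.4% and lower in 19.8%. These sets were not matched further for length, and beside the raised value a single read passes 2-fold only in a short gene. On 1 read in PU.1-/- skin Hist1h3g, at 492 nt, was counted and Hist1h2ae, at 558 nt, was not. Nothing about histone genes is therefore read from the difference in these shares. Among genes that reached 1 FPKM, 1 of 11 histone genes was higher (9.09%), beside 1.71% of 13237 genes, and 1 was lower (9.09%), beside 4.45%.

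The fixed threshold treats single reads unevenly. Because the PU.1-/- library was deeper, 2 reads in WT against 1 in PU.1-/- skin came out as a 2.30-fold lower FPKM before low values were raised, while 1 read against 2 came out as 1.74-fold higher. There were 4 histone genes whose WT reads were 2 times those of PU.1-/-, and all of them were counted as lower (Hist1h2ag, Hist1h2bm, Hist1h3f and Hist1h3h). There were 5 with the opposite proportion (Hist1h2bg, Hist1h2bj, Hist1h2bk, Hist1h3a and Hist1h4d), and none of those was counted. A further 6 genes had equal reads in both libraries.

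Sharing of sequence among the copies limits the single genes further. At least 1 exact 75-base window was shared with another gene in 62 of the 68 genes, and over 50% of the windows in 28 genes, which together held 35 reads (1.64% of those in the family). The sums over families do not depend on how shared reads were divided within a family, apart from differences in transcript length. They can still depend on windows shared outside a family, as between Hist1h1e and Hist1h2be or between H2a genes and H2afx. The ratios of summed FPKM over the 5 whole families ran from 0.820 in H4 to 1.35 in H3. Intervals of families and clusters belong to their pooled reads, whose ratio can differ, as in H3 (1.19 from reads). None of the 5 read intervals left out 1. That of H2b without Hist1h2bc did, at a read ratio of 0.632 beside a summed FPKM ratio of 1.20. By cluster, the ratio of summed FPKM was 0.955 in Hist1, 1.60 in Hist2 (3.52 and 5.63 FPKM, on 27 and 42 reads, interval 0.816 to 2.28) and 1.22 in Hist3 (10.9 and 13.2 FPKM, on 43 and 59 reads, interval 0.793 to 1.81).

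H2a and H2b genes lie head to head in the clusters, and 13 such pairs had starts 173 to 306 nt apart. In 10 pairs both genes held under 10 reads, and in 4 of them there was no read at all. The other 3 pairs held more. In Hist1h2ac and Hist1h2bc, the starts are 251 nt apart. Hist1h2ac was 0.264 FPKM in WT skin and 0.230 FPKM in PU.1-/- skin, on 1 read each, across the shared region from the 39.2 and 37.8 FPKM of Hist1h2bc. In the pair of Hist2h2ac and Hist2h2be the reads were 23 and 35 over both libraries, and Hist3h2a stood at 79 reads beside the pseudogene Hist3h2bb-ps, which was listed at 0.

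The region between Hist1h2ac and Hist1h2bc is shown because it lies between a gene of 2 reads and the histone gene with the most estimated reads at the lengths used. It is the Hist1h2ac promoter of RefSeq (GRCm38.p6, chr13:23683910-23684209, minus strand), and it reaches past the start of Hist1h2bc on the other strand. Capitals mark matches to the octamer ATTTGCAT, the CCAAT box CCAAT and the TATA box TATAAA, each searched on both strands.
Hist1h2ac: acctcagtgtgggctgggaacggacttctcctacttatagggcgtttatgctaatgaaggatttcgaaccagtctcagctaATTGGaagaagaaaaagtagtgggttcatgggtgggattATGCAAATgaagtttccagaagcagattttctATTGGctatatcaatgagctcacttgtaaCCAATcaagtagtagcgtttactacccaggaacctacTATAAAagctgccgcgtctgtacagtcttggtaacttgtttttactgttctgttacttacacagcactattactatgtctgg

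Promoters of 62 of the 68 genes were matched. The octamer, a sequence recognised by Oct factors such as Pou2f1 and known from H2b promoters, was found in 7 of 18 H2a and 6 of 16 H2b promoters, in none of the H1, H3 and H4 promoters, and in 1.74% of 32851 mouse promoters of the same length. The CCAAT box was found in all H1, H2a, H2b and H3 promoters matched and in 3 of 12 H4 promoters, beside 37.4% of all promoters. The H1 box AAACACA was found in 5 of 6 H1 promoters, beside 7.18%. The TATA box was found in 4 of 6 H1, 11 of 18 H2a, 8 of 16 H2b, 4 of 10 H3 and 8 of 12 H4 promoters, beside 13.6%. These are matches of letters only.

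Genes that act with the replication histones were read from lists. The 33 S phase genes, such as the sliding clamp Pcna and the helicase subunits Mcm6 and Mcm7, held no gene past 2-fold. Of these, 31 were lower in PU.1-/- skin, with a median log2 ratio of -0.35, beside -0.01 over the 16298 genes of at least 0.1 FPKM. Pcna was 134 FPKM in WT skin and 97.2 FPKM in PU.1-/- skin, Mcm6 was 40.5 and 33.0 FPKM, and Mcm7 was 31.4 and 29.2 FPKM. All 15 G2 and mitosis genes were lower too, again with none past 2-fold, and their median log2 ratio was -0.47. Among them Ube2c, a ubiquitin-conjugating enzyme of mitotic exit, was 30.9 and 20.4 FPKM, Birc5, a subunit of the chromosomal passenger complex, was 27.3 and 19.2 FPKM, and Cdc20, an activator of the anaphase-promoting complex, was 22.7 and 14.3 FPKM. The median log2 ratio of the 44 histone genes of at least 0.1 FPKM was 0.15. These include genes that passed only through the library where they were high, and Hist1h1b and Hist1h1e, without which the median was 0.05. It was 0.00 over all 68 genes and -0.04 over the 9 with at least 10 reads, so nothing is read from its sign.

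Of 14 genes found on the list of histone transcription and mRNA processing, none was past 2-fold, 8 were higher and 6 lower. The median log2 ratio was 0.04, and the log2 ratios of single genes ran from -0.55 in Lsm10, a subunit of the particle that cuts histone mRNA (16.8 and 11.5 FPKM), to 0.30 in Hinfp, a factor of H4 transcription (3.85 and 4.75 FPKM). Slbp, which binds the stem-loop, was 20.8 FPKM in WT skin and 18.2 FPKM in PU.1-/- skin. Yy1, a transcription factor, was 39.0 and 40.6 FPKM, and Upf1, which takes part in histone mRNA decay at the end of S phase, was 18.9 and 20.4 FPKM. The 17 histone chaperones had a median of 0.02 and none past 2-fold. Nap1l1, which carries H2a and H2b, was 145 and 159 FPKM, Rbbp7 was 85.0 and 89.9 FPKM, and Ssrp1, a subunit of the FACT complex, was 71.2 and 72.4 FPKM.

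Most replication-independent histones are made throughout the cell cycle from polyadenylated mRNA. Genes on this list had far higher FPKM in these libraries than the family described here. Because the libraries select poly(A) tails, this does not compare the amounts of these mRNAs in skin. The 11 genes summed to 1553 FPKM in WT skin and 1475 FPKM in PU.1-/- skin, a ratio of 0.950, and none was past 2-fold. H3f3a and H3f3b, which both encode the replacement histone H3.3, were 655 and 639 FPKM and 348 and 351 FPKM. H2afz, which encodes the variant H2A.Z, was 267 and 217 FPKM. Their median log2 ratio was -0.04.

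**Figure D4:**
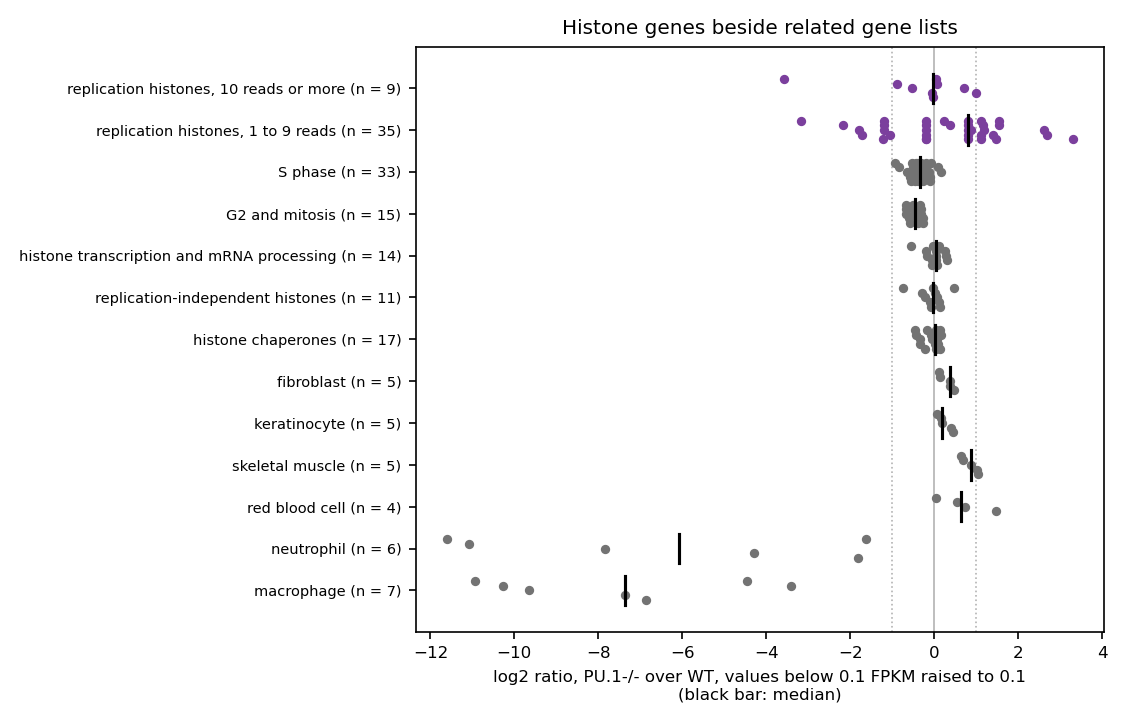
Log2 ratio of PU.1-/- over WT FPKM, with values below 0.1 FPKM raised to 0.1, for histone genes (purple, split by read number) and for related and cell type lists (grey); each point is 1 gene, black bars are medians and dotted lines mark 2-fold. The 35 histone genes of 1 to 9 reads, among them Hist1h1b, Hist1h1e and 12 genes listed at 0 in WT, spread widely in both directions, while those of at least 10 reads lie near 0 apart from Hist1h2be, and the S phase and mitosis points lie mostly left of 0.

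The cell types in the libraries differed as well. All 7 macrophage markers were lower in PU.1-/- skin, with sums of 556 and 5.33 FPKM. There C1qa, C1qb, Tyrobp and Adgre1 were listed at 0, while Lyz2, Csf1r and Cd68 were 0.520, 0.684 and 4.12 FPKM. All 6 neutrophil markers were lower, with sums of 12462 and 3645 FPKM, and in PU.1-/- skin Retnlg, Ngp, Csf3r and Mmp8 were listed at 0. The whole PU.1-/- sum came from S100a8 (6600 and 2129 FPKM) and S100a9 (5311 and 1516 FPKM). None of the 5 fibroblast or 5 keratinocyte markers was past 2-fold, and their sums were 1564 and 1946 FPKM and 10056 and 11593 FPKM. All of these 10 had higher values in PU.1-/- skin. All 5 skeletal muscle markers were higher too, Myh3 and Myh8 by more than 2-fold, with sums over the list of 5389 and 9507 FPKM. All 4 red blood cell markers were higher, with sums of 1273 and 1533 FPKM, and Slc4a1 was past 2-fold, at 0.514 and 1.43 FPKM. The 3 male germ cell histones, Hist1h1t, Hist1h2aa and Hist1h2ba, were listed at 0 in both libraries. The part of these cell types in any histone value was not tested, and in bulk tissue fewer cells of a type and less RNA per cell cannot be told apart.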

How the data were processed

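RNA of wounded skin from WT and PU.1-/- neonates was sequenced as 1 library each with a stranded mRNA kit, as single-end reads of 75 bases. The authors deposited FPKM values, made with Cuffnorm on mm10, and the submitters' processing notes name TopHat2 2.1.1, Bowtie2 2.2.8, SAMtools 0.1.18 and Cuffdiff 2.2.1. The annotation is not given in the sources used here. TopHat2 and Cuffdiff can divide reads of near-identical genes between copies, which moves single histone genes more than family sums.

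Values below 0.1 FPKM were raised to 0.1, and genes with a PU.1-/- over WT ratio of at least 2, or at most 0.5, were counted. Reads of the histone genes were estimated from FPKM, transcript length (RefSeq up to 3000 nt, otherwise GENCODE) and the FPKM steps of low genes, assuming fragments of 200 nt with an SD of 80 nt. These lengths can differ from those of the transcripts searched for sequences. For Hist1h1c they were 725 nt and 1560 nt. Read numbers and interval widths of such genes therefore depend on the length in the authors' annotation, which is not known. Read pairs were taken as whole within 0.0003 reads plus a relative 6e-06. Intervals are exact binomial at 95%. For families and clusters they were taken on pooled reads, and so are not intervals of the ratio of summed FPKM. In a simulation of PU.1-/- against WT on 4111 genes, 100 of 100 genes made 4-fold higher and 99 of 100 made 4-fold lower were called, and 192 of 200 intervals held the true ratio. None was a histone gene, and the genes made higher or lower had more expected reads than most histone genes. Reads were made with the same length model and without shared sequence. Calls on histone genes of few reads or shared sequence were therefore not covered. The genes, lists and settings were chosen with earlier results of these data known. Genes named in full were Hist1h1b, Hist1h1e, the 3 with the highest mean FPKM in each family and those past 2-fold of at least 1 FPKM. In each related list they were the 3 with the highest mean and those past 2-fold of at least 1 FPKM. Hist2h2be, Hist1h3d, Hist1h1a, Lsm10, Hinfp, the genes at a threshold and those in the read proportions and head-to-head pairs were chosen after their values were seen. Calculations used scipy 1.17.1 and numpy 2.4.6 with pandas 2.3.3 in Python 3.11.15, and figures used matplotlib 3.10.9.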

Additional observations from a re-analysis of the deposited data

How the results depend on the processing

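Of 290 values recomputed under the alternatives, 262 stayed within their counting interval, within 0.1 log2 units for medians or within 1.5 times for counts. Part of this was fixed in advance, since leaving out Hist1h1b and Hist1h1e, for example, cannot change the sums of H2a, H2b, H3 and H4. Wide intervals also hold large moves: the log2 ratio of Hist1h1b went from 1.11 to 0 with FPKM below 1 raised to 1. The 262 are therefore no measure of how firm the results are. The 12 higher and 10 lower histone genes became 1 and 0 with FPKM below 1 raised to 1, 1 and 1 with a pseudocount of 1 FPKM, 1 and 1 among genes of at least 1 FPKM, and 0 and 1 among genes of at least 10 reads. At 1.5-fold 20 were higher, and at 3-fold 3 were higher and 5 lower. Scaling both libraries to the same FPKM sum gave 13 higher, with Hist3h2ba added. The median log2 ratio of the histone genes, 0.15, was 0.00 with FPKM below 1 raised to 1 and with no filter, -0.035 among genes of at least 10 reads, and 0.31 without Hist1h1c and Hist1h2bc, an alternative chosen after seeing the data. Without those 2 genes the ratio of summed FPKM was 2.39 for H1, of whose 4 and 11 reads Hist1h1b and Hist1h1e, for which the family was chosen, hold 2 and 7, and 1.20 for H2b, whose reads gave 0.632. For Hist1h2be the log2 ratio was -0.25 with FPKM below 1 raised to 1. With that floor and with the pseudocount, the median log2 ratio was -6.33 and -5.83 for macrophage markers and -3.17 and -3.20 for neutrophil markers. Past 2-fold there was then 1 skeletal muscle gene with the pseudocount, and 0 red blood cell genes under either setting, with a red blood cell median of 0.53 under the floor. No H3 sum could be given among genes of at least 1 FPKM or of at least 10 reads, since none is left.

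No paired analysis was possible because each genotype has 1 library, and leaving out a library leaves no comparison. Counts at this depth limit the family: with 59 of 68 genes under 10 reads, single genes of low level cannot be resolved, and poly(A) selection leaves histone mRNAs without a tail unmeasured.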
